A study of Mus musculus with 16 samples.

Results

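The regions described here are the largest differences in DNA methylation between wild type and Gulo-/- mouse kidney outside chromosome 14 and the sex chromosomes. The authors' deposited table lists regions called differentially methylated, and members were picked by the size of the difference itself: an absolute difference between the mean methylation levels of the 2 sides of the comparison of at least 0.35 (35 percentage points), at least 5 CpGs, and a position outside chromosomes 14, X and Y. That left 584 of the 86510 regions of the authors' deposited table, or 1.03% of the 56807 regions that met the chromosome and CpG limits. The methylation levels chose the members, so their size and direction are given as a description and carry no test.

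The animals were C57BL/6 mice, either wild type or Gulo-/-, and the tissue was kidney. Gulo encodes L-gulonolactone oxidase, with which mice, unlike humans, complete the synthesis of ascorbate (vitamin C). No age, diet or ascorbate supply is given in the labels, and they do not say whether the replicates were separate animals. In the single-cell libraries the sex-linked genes Xist and Ddx3y differed between the replicates of each genotype, so those came from different animals. Every p-value below comes from these libraries, and the spread it measures includes sex unless sex was a block. There were 2 wild type and 2 Gulo-/- samples for each assay, and bisulfite sequencing and single-cell RNA sequencing are used here.

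Cytosines followed by guanine (CpGs) are mostly methylated in mammalian DNA, except at CpG-rich promoters and at active regulatory elements, and the positions of unmethylated elements differ between cell types. TET enzymes oxidise methylated cytosine and can thereby lead to its removal, and ascorbate is known to enhance their activity. In the kidney, the proximal tubule reabsorbs most of the filtered glucose, bicarbonate, phosphate and protein, and it also makes glucose and arginine.

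The authors' deposited table names its sides 1 and 2 and ties neither to a genotype, so each direction below is given by side. It holds 1 mean level per side, no value per sample and no coverage. The spread between the bisulfite samples and the depth behind a level are therefore unknown. Positions are those of the authors' deposited table, which per the submitters' processing notes rests on mouse genome build mm10.

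Promoter sequences are shown for 4 promoter regions that overlap the RefSeq promoter window of their own gene, 3 with the largest differences of those lower on side 1 for which RefSeq gives a promoter window and the single such region that was higher. Each runs 5′ to 3′ on the gene's strand, from 250 bases before to 50 bases after the start, in RefSeq coordinates on mm10 (GRCm38.p6). Capitals mark the CpGs that lie inside the region. Guca2b (chr4:119658896-119659195, minus strand) encodes uroguanylin, a peptide that acts on salt handling. Slc35e3 (chr10:117746309-117746608, minus strand) encodes a member of a family of nucleotide sugar transporters. Ddo (chr10:40629761-40630060, plus strand) encodes D-aspartate oxidase. Gapdhs (chr7:30743632-30743931, minus strand) encodes the glyceraldehyde-3-phosphate dehydrogenase of sperm.
Guca2b: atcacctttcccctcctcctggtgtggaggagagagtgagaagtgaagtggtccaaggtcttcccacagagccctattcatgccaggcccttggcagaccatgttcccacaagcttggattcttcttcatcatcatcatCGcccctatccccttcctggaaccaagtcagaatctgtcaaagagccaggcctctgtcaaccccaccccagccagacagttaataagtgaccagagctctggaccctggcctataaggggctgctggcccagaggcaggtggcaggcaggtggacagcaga
Slc35e3: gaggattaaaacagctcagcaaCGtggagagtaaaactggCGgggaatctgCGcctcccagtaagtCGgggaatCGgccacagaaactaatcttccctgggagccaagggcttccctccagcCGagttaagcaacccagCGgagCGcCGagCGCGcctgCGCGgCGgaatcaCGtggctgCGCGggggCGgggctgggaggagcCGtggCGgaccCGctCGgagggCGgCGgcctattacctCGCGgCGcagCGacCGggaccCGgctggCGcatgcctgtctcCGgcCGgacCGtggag
Ddo: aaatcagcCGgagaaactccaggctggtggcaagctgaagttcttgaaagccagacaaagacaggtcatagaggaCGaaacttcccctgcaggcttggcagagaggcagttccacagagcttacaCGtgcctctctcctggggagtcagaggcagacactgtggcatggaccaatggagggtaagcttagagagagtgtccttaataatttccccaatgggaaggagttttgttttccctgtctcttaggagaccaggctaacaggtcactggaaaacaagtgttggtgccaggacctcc
Gapdhs: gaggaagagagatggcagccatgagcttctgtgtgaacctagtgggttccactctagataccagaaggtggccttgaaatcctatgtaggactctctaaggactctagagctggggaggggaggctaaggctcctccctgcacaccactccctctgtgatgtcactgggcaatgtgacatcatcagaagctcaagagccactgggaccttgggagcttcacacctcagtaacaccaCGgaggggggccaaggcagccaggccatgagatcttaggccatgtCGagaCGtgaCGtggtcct

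These 4 windows differ widely in CpG content. The Slc35e3 window holds 34 CpGs, all inside the region, against a median of 7 over the 32851 promoter windows of the reference. Guca2b has 1 CpG, Ddo 3 and Gapdhs 4, so 3 of the 4 windows are poor in CpGs. Levels in the authors' deposited table were 42.9% on side 1 and 81.2% on side 2 at Guca2b, 16.3% and 53.1% at Slc35e3, and 85.7% and 46.0% at Gapdhs. At Ddo the difference was -35.3 points.

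Most of the 584 regions were less methylated on side 1. The authors' deposited table lists 497 as lower on side 1 and 87 as higher, so 85.1% were lower, against 60.3% of the 56807 regions with the same chromosome and CpG limits. Chromosome 14, which the rule leaves out, went the other way, with 20 of its 197 regions of the same size lower on side 1. Regions lower on side 1 had a median level of 36.4% there and 75.3% on side 2 in the authors' deposited table. Regions higher on side 1 had a median of 83.7% there and 44.9% on side 2. Both directions thus paired a largely methylated side with an intermediate one, and few regions approached the unmethylated state: 35 lay under 20% on side 1 and 3 lay under 20% on side 2.

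**Figure D1:**
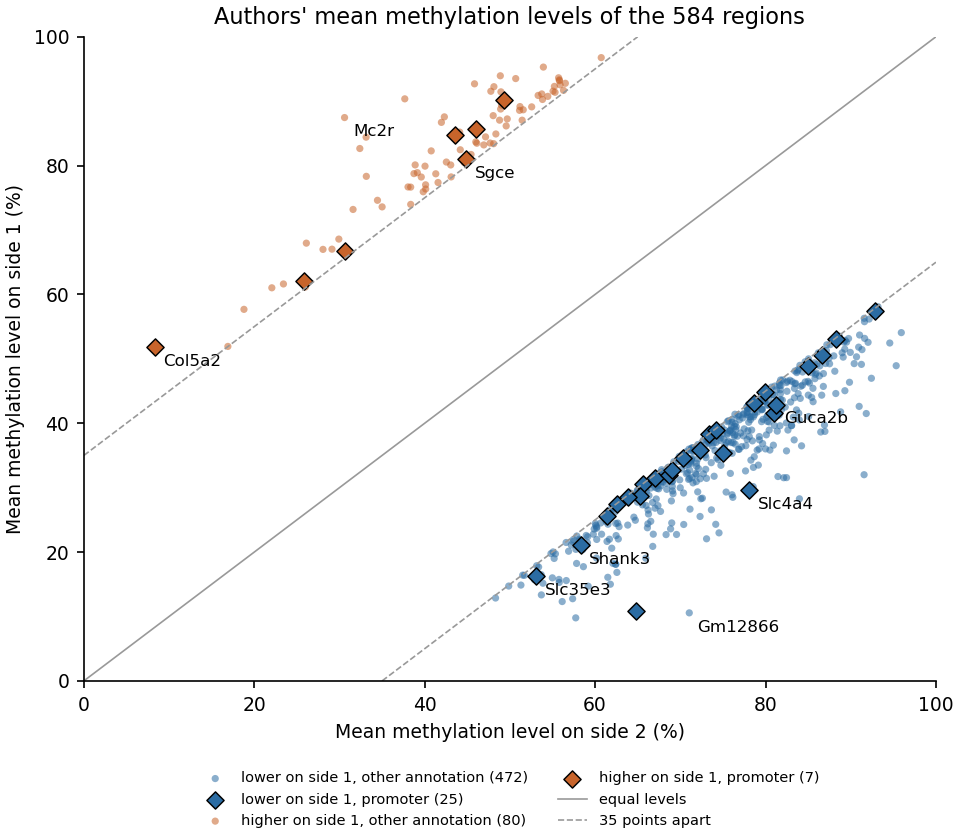
Mean methylation level of each of the 584 regions on side 2 (horizontal axis, %) and side 1 (vertical axis, %) as the authors' deposited table gives them; diamonds are promoter regions, blue points are lower and orange points higher on side 1, and the dashed lines mark the limit of 35 points. The 497 blue points outnumber the 87 orange ones, and the 7 orange diamonds include Col5a2, the least methylated promoter on side 2.

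Differences ran from -60.5 to 56.9 points, and most members sat near the limit. Between 35 and 40 points lay 427 of the 584, and 13 reached 50 points, of which 9 were lower and 4 higher on side 1. Just inside the limit of the rule were introns of Nfia, P3h2 and Sox5, each at -35.0 points in the authors' deposited table. Just outside it were Pacsin2, Nat8 and Lars, at -34.99, -34.99 and -34.98 points.

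The region furthest below side 2 on side 1 was intergenic, at chr4:119019688-119019808, with 10.6% on side 1 and 71.1% on side 2 in the authors' deposited table. It holds 6 CpGs and lies 49303 bases from the start of Gm12866, a gene model with little RNA in these cells. Next came chr12:21776803-21776855, with 32.0% and 91.6%, which the table assigns to Ywhaq although that gene starts 359222 bases away. The intergenic region 22937 bases from Tmem64 differed by -55.7 points. The promoter region of BC037032 differed by -53.9 points, and introns of Rnf217, a RING finger gene, and Nln, which encodes the peptidase neurolysin, by -51.6 and -51.0 points. Further negative differences in the authors' deposited table were -50.9 points in an exon of E030018B13Rik, -50.6 in Cdkal1, a tRNA-modifying enzyme, -50.3 near Gm31763, -49.8 in an exon of the kinase gene Rps6ka1 and -49.7 near Ccdc65. The promoter of Slc4a4 closed the 12 largest, at -48.4 points.

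Among the regions higher on side 1, the largest difference was annotated as intronic and assigned to Mc2r, the receptor for adrenocorticotropic hormone, with 87.5% on side 1 and 30.6% on side 2 in the authors' deposited table. It lies at chr18:68417100-68417188 and holds 5 CpGs. A region 76712 bases from Emb, which encodes the membrane glycoprotein embigin, was higher by 52.7 points. Differences of 51.3 and 50.3 points were listed for an exonic region assigned to Bcl2l12, which lies within the gene Scaf1, and for an intron of the carboxylesterase gene Ces2h. The other members among the 12 largest positive differences in the authors' deposited table lay between 43.5 and 46.8 points. They were assigned to Pom121l12, Sept9, Amotl1, Bcl2a1c, Apba2, Mat2b, Tram1l1 and Col5a2. No UMI of Mc2r or Ces2h was counted in any library, and Apba2 had 3 UMIs and Tram1l1 6. The genes assigned to several of the largest positive differences were thus close to silent in these cells. This was not particular to the positive side. E030018B13Rik, Ccdc65 and Gm12866, assigned to some of the largest negative differences, had little RNA too.

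Introns held more of the members than of the regions at large, and promoters fewer. Of the 584, by the annotation the authors deposited in their table, 52.2% lay in introns against 38.0% of the 56807, 30.5% were distal intergenic against 37.9%, and 5.48% were promoters against 11.2%. Exons took 6.68% against 8.33%. The members were also slightly longer and sparser, with a median of 336 bases against 280, the same median of 7 CpGs, and 2.35 CpGs per 100 bases against 2.88. The share within 10 kb of a transcription start was 38.7% against 35.8%, and beyond 100 kb 9.25% against 16.5%.

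Members were lower on side 1 more often than the regions at large in each annotation except promoters. In the authors' deposited table the share of members lower on side 1 was 88.2% of 305 intronic, 92.3% of 39 exonic and 77.5% of 178 distal intergenic regions. Over all regions these shares were 65.1%, 64.1% and 47.7%. Of the 32 promoter members 25 were lower and 7 higher, or 78.1% lower, close to the 80.5% of all 6373 promoter regions. Each of the 16 members in 3′ UTRs was lower on side 1, where 68.2% of all 3′ UTR regions were.

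**Figure D2:**
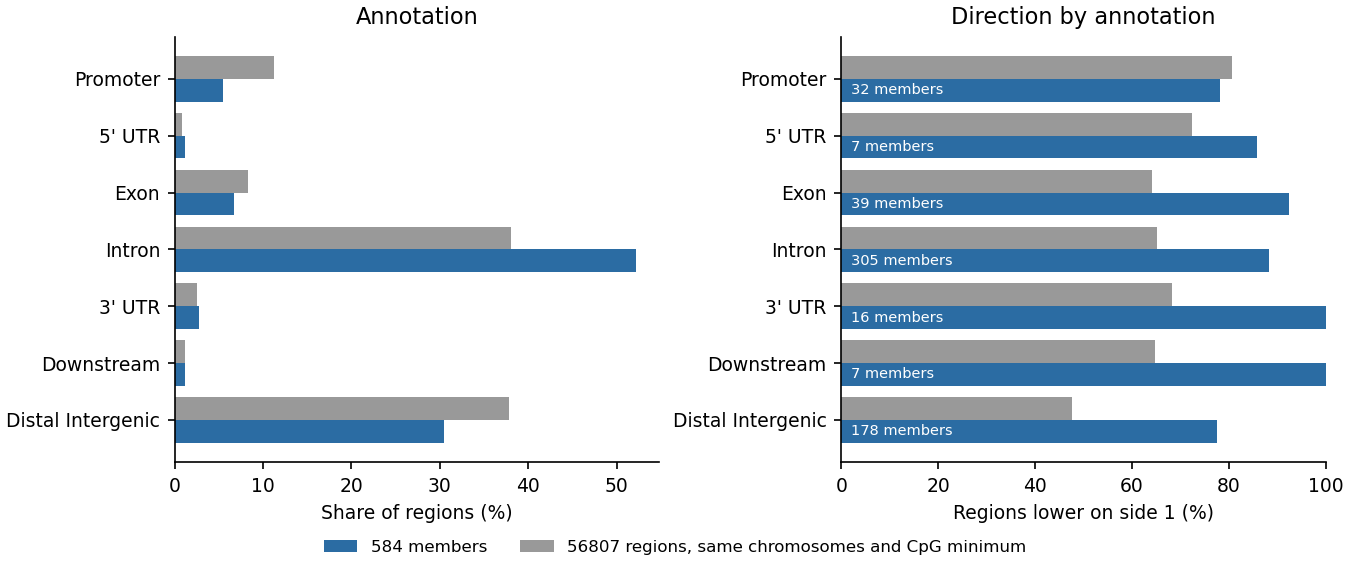
Share of regions by annotation (left, %) and share lower on side 1 within each annotation (right, %) for the 584 members (blue) and all 56807 regions on the same chromosomes with at least 5 CpGs (grey), from the authors' deposited table. Introns hold 52.2% of the members and 38.0% of all regions, and the blue bars on the right exceed the grey ones except for promoters.

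The regions were scattered over the genome. The limits of the rule took between 0.770% of the regions of chromosome 5 and 1.38% of those of chromosome 4, and the share lower on side 1 lay between 76.5% on chromosome 7 and 94.7% on chromosome 10. Members within 10 kb of each other made up 8 loci with 17 members, so the 584 formed 575 loci. The locus at chr12:69777362-69786602, near 4930512B01Rik, held 3 members, all lower on side 1. Pairs lay in introns of Tns1, which encodes the adhesion protein tensin, of Ndrg1 and of Asap3. A further pair is assigned to Rara, the retinoic acid receptor alpha, another to Snord52, and another to Mrpl37 although it lies in introns of Ssbp3. Of 40 neighbouring pairs within 100 kb in the authors' deposited table, 34 shared a direction, 33 of them lower on side 1. Since 85.1% of all members were lower on side 1, most pairs taken at random would share a direction too. The Ppp1r16a and Gpt locus at chr15:76690503-76696879 held 1 member of each direction, 36.0 points at Ppp1r16a and -35.1 at the promoter of Gpt, which encodes alanine aminotransferase.

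The promoter members lower on side 1 were led by BC037032 and Slc4a4. Slc4a4 encodes the basolateral sodium bicarbonate cotransporter of the proximal tubule, and its region at chr5:89028121-89028537 holds 14 CpGs, with 29.6% on side 1 and 78.1% on side 2 in the authors' deposited table. Ass1 encodes argininosuccinate synthase, which makes arginine precursor in the proximal tubule. Its promoter region at chr2:31468828-31469459 stood at 41.7% and 80.9%. A region 539 bases from Mir185, a microRNA gene, stood at 35.4% and 75.1%. A further promoter member, at chr11:75550320-75551516 and -36.4 points, spans the hairpin of the microRNA gene Mir3971, whose mature sequence is given here with its seed (bases 2 to 8) in capitals.
mmu-miR-3971: cUCCCCACcccuguaccaguga

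There were 5 regions with over 40 CpGs, of which 4 were promoters. The authors' deposited table lists 75 CpGs at Slc35e3, 71 at Shank3, which encodes a synaptic scaffold protein, 52 at Sgce and 42 at Bmi1, a Polycomb component. The remaining region, with 69 CpGs, is annotated to the 3′ UTR of Gipc3 and had 20.4% on side 1 and 58.5% on side 2. Slc35e3, Shank3 and Bmi1 were lower on side 1, at -36.8, -37.2 and -36.6 points in the authors' deposited table, and Sgce was higher. Shank3 had 21.1% on side 1 and 58.3% on side 2, so its promoter was, like that of Slc35e3, partly methylated on the higher side. Sgce had 81.0% on its higher side, side 1. In the single-cell data Shank3 was scarce, with 111 UMIs in all.

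Promoter members higher on side 1 numbered 7: Col5a2, Mir133a-2, Hsd11b1, Gapdhs, Akap1, Sgce and Ppp1r16a. Col5a2 encodes a chain of type V collagen, and its region at chr1:45502950-45503221 had 51.8% on side 1 and 8.39% on side 2 in the authors' deposited table. Hsd11b1 encodes the enzyme that regenerates active glucocorticoid, and its region had 90.2% and 49.3%. Mir133a-2 had 84.7% and 43.6%, and Akap1, which anchors protein kinase A at mitochondria, 62.1% and 25.8%. These regions ranged from nearly full to intermediate methylation on side 1.

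Of a list of 55 imprinted genes, 3 had a member. Sgce encodes epsilon-sarcoglycan, is expressed from the paternal allele, and its promoter region had 81.0% on side 1 and 44.9% on side 2 in the authors' deposited table. Snurf, of the imprinted Snrpn locus, had an intronic region at chr7:60003938-60004322 with 68.0% and 26.1%. Phlda2, a growth regulator expressed from the maternal allele, had a region downstream of the gene with 54.1% and 95.9%. The list took 0.514% of the members and 0.384% of all 56807 regions. No member was assigned to any of 30 germline genes, which had 51 regions in all (0.0898% of the 56807). None was assigned to any of 15 genes for writers, readers and erasers of DNA methylation, which had 61 (0.107%). The rule took 1.03% of all regions, so with so few regions these zeros cannot show that the genes were spared.

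Expression of the assigned genes was read from the single-cell libraries, which the rule did not use. Their totals were 10208946 and 61688164 UMIs (counted RNA molecules) for the wild type pair and 10073836 and 88925323 for the Gulo-/- pair, always replicate 1 first, and 1575, 7006, 1849 and 12403 cells were kept. Xist and Ddx3y placed 1 female and 1 male library in each genotype, replicate 1 being the female of the wild type pair and replicate 2 that of the Gulo-/- pair. Gulo had 0, 2, 0 and 2 UMIs in the whole libraries, too few to check the genotype. The wild type libraries shared 807 cell barcodes, where 18.1 were expected by chance, and 793 were removed from replicate 2. Cells were grouped into 33 clusters and named "-like" from marker genes, with 3 clusters left unnamed, and 11 classes had at least 20 cells in a library of each genotype. Levels are CPM, the UMIs of the gene scaled to a fixed total of UMIs for each class and library.

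The libraries of the genotypes held different mixtures of cells, and no test was made of the shares. Proximal tubule-like cells made up 82.1% and 84.3% of wild type cells and 49.2% and 23.8% of Gulo-/- cells, a mean of 83.2% ± 1.58 (SD, n = 2) and 36.5% ± 17.9 (SD, n = 2). Thick ascending limb-like cells made up 2.98% and 2.91% in wild type against 6.06% and 26.5% in Gulo-/-, without overlap of the groups. Per the labels the kidneys were chopped and mixed before each assay took a share, and the bisulfite levels are means over whole tissue. A change in methylation within a cell type and a change in the mixture therefore cannot be told apart in these regions.

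The 584 regions were assigned to 559 genes, 472 with regions lower and 87 with regions higher on side 1, and none with both. In the single-cell matrices 438 and 79 of them were found, and 378 and 49 had at least 20 UMIs in all cells and are called expressed here. Of the genes of all regions lower on side 1, 8495 of 11143 were expressed, and of all regions higher 6008 of 9072. The share for the 438 was thus above its background, and that for the 79 was slightly below its own. The 378 and the 49 genes were both spread over all 11 classes. Principal cell-like cells were highest for 81 of the 378 (21.4%), the largest count of any class. They were highest for 7 of the 49 (14.3%) and for 16.8% of all expressed genes. Of the 378, 42 had their highest CPM in proximal tubule-like cells (11.1%), against 9.11% of 15178 expressed genes. Of the 49 it was 1 (2.04%), Mrps36, a mitochondrial protein gene. Endothelial-like cells were highest for 70 of the 378 (18.5%) and 12 of the 49 (24.5%), against 16.7% of all, and stromal-like cells for 54 (14.3%) and 11 (22.4%), against 15.9%. Within single libraries the proximal tubule share was 18.9%, 10.03%, 11.1% and 10.4% for genes of regions lower on side 1, and 15.2%, 4.65%, 8.11% and 6.25% for genes of regions higher, over 5, 11, 8 and 11 classes, so the gap is narrower there. Over all genes the shares were 17.3%, 9.71%, 10.8% and 8.64%. No test was made of these shares.

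**Figure D3:**
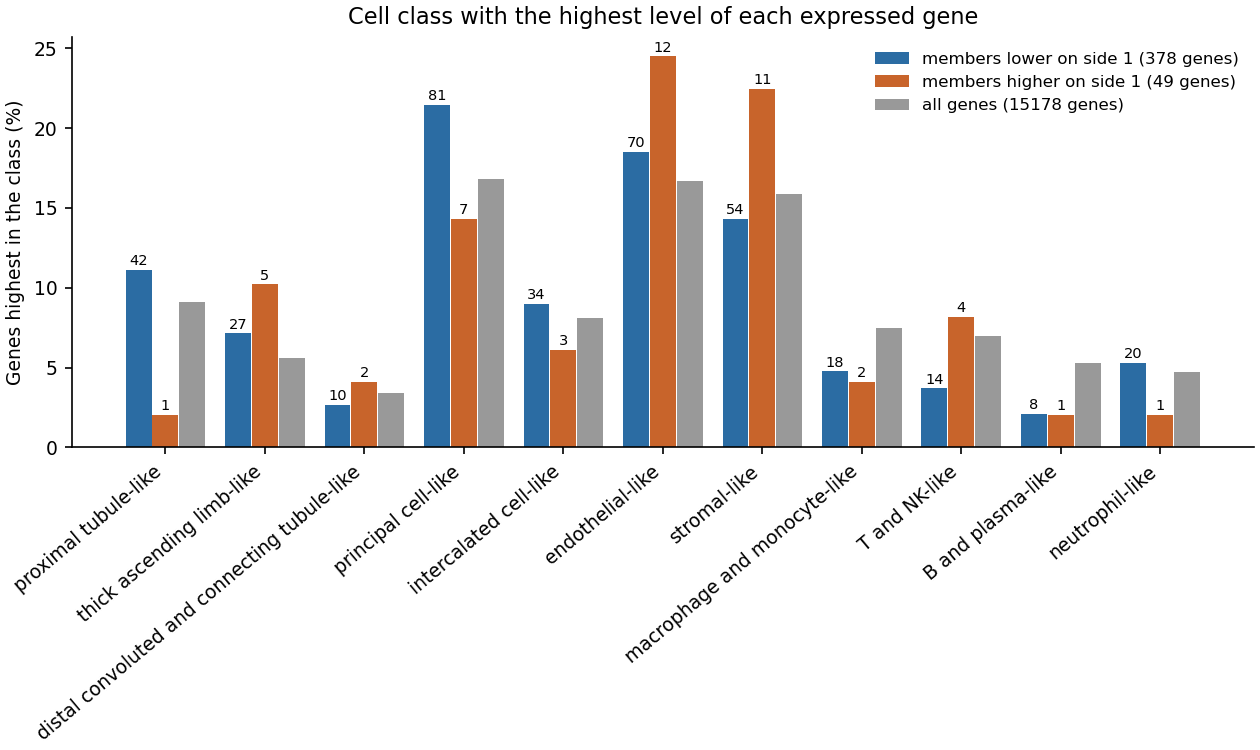
Share (%) of expressed genes whose highest mean CPM falls in each of 11 cell classes, for genes of regions lower on side 1 (blue, 378 genes), genes of regions higher on side 1 (orange, 49 genes) and all expressed genes (grey, 15178); numbers over the bars count genes. Proximal tubule-like cells were highest for 42 blue genes and 1 orange gene, and principal cell-like cells for 81 and 7.

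Genes with at least 4-fold more CPM in proximal tubule-like cells than in the mean of the other 10 classes, at a pseudocount of 1, numbered 21 of the 378 (5.56%) and 0 of the 49, against 2.98% of all expressed genes and 3.44% of those of all regions lower on side 1. They included 4 of the marker genes used to name the class, among them Ass1, Fbp1 and Lrp2. At the other end, at least 4-fold less in proximal tubule-like cells, stood 15.3% of the 378 and 32.7% of the 49, against 14.8% of all. In the authors' deposited table of cluster markers, 62 of the 472 genes with regions lower on side 1 appear, 18 of them in a proximal tubule cluster (29.0%). Of all 1193 marker genes there, 248 do (20.8%). Both proximal tubule counts join several clusters of that table. Genes with regions lower on side 1 are also listed for other clusters, such as Gata2 for CD-PC and Meis2 for fEC. No shares were computed for those clusters, so the proximal tubule share is not shown to stand out from them. The 62 of 472 has no share over all genes beside it. Of the 87 genes with regions higher on side 1, 5 appear in the authors' deposited table of markers and 0 in a proximal tubule cluster.

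By their known roles the 21 genes fall into several groups. Transport and uptake are represented by Slc4a4, Slc2a2, the basolateral glucose transporter, Slc34a3, a sodium phosphate cotransporter, and Lrp2, which encodes the protein uptake receptor megalin. Sugar and glucose metabolism have Fbp1, fructose-bisphosphatase of gluconeogenesis, and Fggy, a carbohydrate kinase. Amino acid and glyoxylate handling have Ass1, Ddah1, which breaks down methylated arginine, and Grhpr, glyoxylate reductase. Gpx3, the secreted glutathione peroxidase, and Akr1a1, an aldehyde reductase that in mice acts upstream of Gulo in ascorbate synthesis, deal with oxidants and aldehydes. Others were Guca2b, Cyp2a5, Hlf, Phlda2, Fut9, B3gat2, Errfi1, Rhobtb1 and Rab11fip3. They were grouped by role after their values were seen.

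Only 3 of the 21, Slc4a4, Ass1 and Guca2b, had a promoter region, and 10 had an intronic one. In the authors' deposited table the Akr1a1 region was intronic, at chr4:116644013-116644339, with 42.9% on side 1 and 80.3% on side 2. The Fbp1 region, intronic at chr13:62883871-62884672 with 14 CpGs, had 31.8% and 74.0%. The 3′ UTR region assigned to Gpx3 had 44.0% and 80.4%, Lrp2 (intron) 44.6% and 83.8%, and Slc2a2 (intron) 29.6% and 65.1%, all in the authors' deposited table. The side 1 levels of these 5 genes ranged from 29.6% to 44.6%.

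Levels in proximal tubule-like cells, as CPM with the wild type pair first and the Gulo-/- pair second, were highest for Gpx3: 19214, 18754, 23642 and 23935. The Gulo-/- values of Gpx3 both lay above the wild type ones. Akr1a1 had 3849, 3157, 2080 and 2078, with both Gulo-/- libraries below both wild type ones. Ass1 had 5938, 2480, 4719 and 3860, with the wild type libraries on either side of the Gulo-/- ones. Slc4a4, whose promoter differed most among these, had 248, 239.6, 525 and 467, higher in both Gulo-/- libraries. Guca2b had 163, 1183, 419 and 274, and the high value came from wild type replicate 2 alone. None of the 21 passed the test described below: their log2 changes ran from -1.18 to 0.89, 14 lower and 7 higher in Gulo-/-. Of all 10998 genes tested in this class, 5287 were lower and 5711 higher in Gulo-/-.

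Outside the proximal tubule, regions lower on side 1 were assigned to genes whose level was highest in many other classes. Pgam2, a phosphoglycerate mutase whose assigned region lies in an exon of Dbnl, had 1429, 999.3, 707 and 767 CPM in distal convoluted and connecting tubule-like cells, against a mean of 11.9 in proximal tubule-like cells. Car12, a carbonic anhydrase, averaged 819 CPM in intercalated cell-like cells, and Plcg2, a phospholipase C, 125. Gata2, a transcription factor, averaged 198 in principal cell-like cells, and Pax8, a transcription factor of kidney epithelium, 112. Ppargc1a, a regulator of mitochondrial genes, averaged 231 in thick ascending limb-like cells. Endothelial-like cells led for Timp3, an inhibitor of matrix proteases, with 2024 CPM, and Adgrf5, an adhesion receptor, with 409.9. Adgrf5 also averaged 305.7 in intercalated cell-like cells. Stromal-like cells led for Foxd1, a transcription factor of stromal progenitors, with 42.1 (5.23 to 94.5 over 3 libraries), and macrophage and monocyte-like cells for Ly86, a partner of a Toll-like receptor homologue, with 544. The Pax8 region, an exon at chr2:24444292-24444665, had 28.5% on side 1 and 76.2% on side 2 in the authors' deposited table.

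Genes of regions higher on side 1 had little RNA in proximal tubule-like cells in several cases. Plvap, which forms the diaphragms of fenestrated endothelium, had 3441, 2498, 3553 and 1605 CPM in endothelial-like cells and a mean of 11.8 in proximal tubule-like cells. Its intronic region at chr8:71509963-71510412 had 91.4% on side 1 and 49.0% on side 2 in the authors' deposited table. Amotl1, of the angiomotin family, had 119.6, 86.7, 153.8 and 139.7 CPM in endothelial-like cells and a mean of 0.587 in proximal tubule-like cells. Col5a2 was highest in thick ascending limb-like cells, with 93.1, 86.0, 18.8 and 23.4 CPM, and averaged 0.62 in proximal tubule-like cells. The thick ascending limb-like class held 47, 204, 112 and 3291 cells and was not tested between genotypes. Sgce averaged 31.1 CPM in endothelial-like and 0.268 in proximal tubule-like cells. Emb averaged 274 CPM in intercalated cell-like cells, and Lcn2, which encodes the iron carrier lipocalin and is a marker of tubule injury, 1353 in neutrophil-like and 839.6 in principal cell-like cells. Ccnd1, cyclin D1, with a region 85632 bases from the gene, differed from these: it averaged 372 CPM in principal cell-like and 163 in proximal tubule-like cells.

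**Figure D4:**
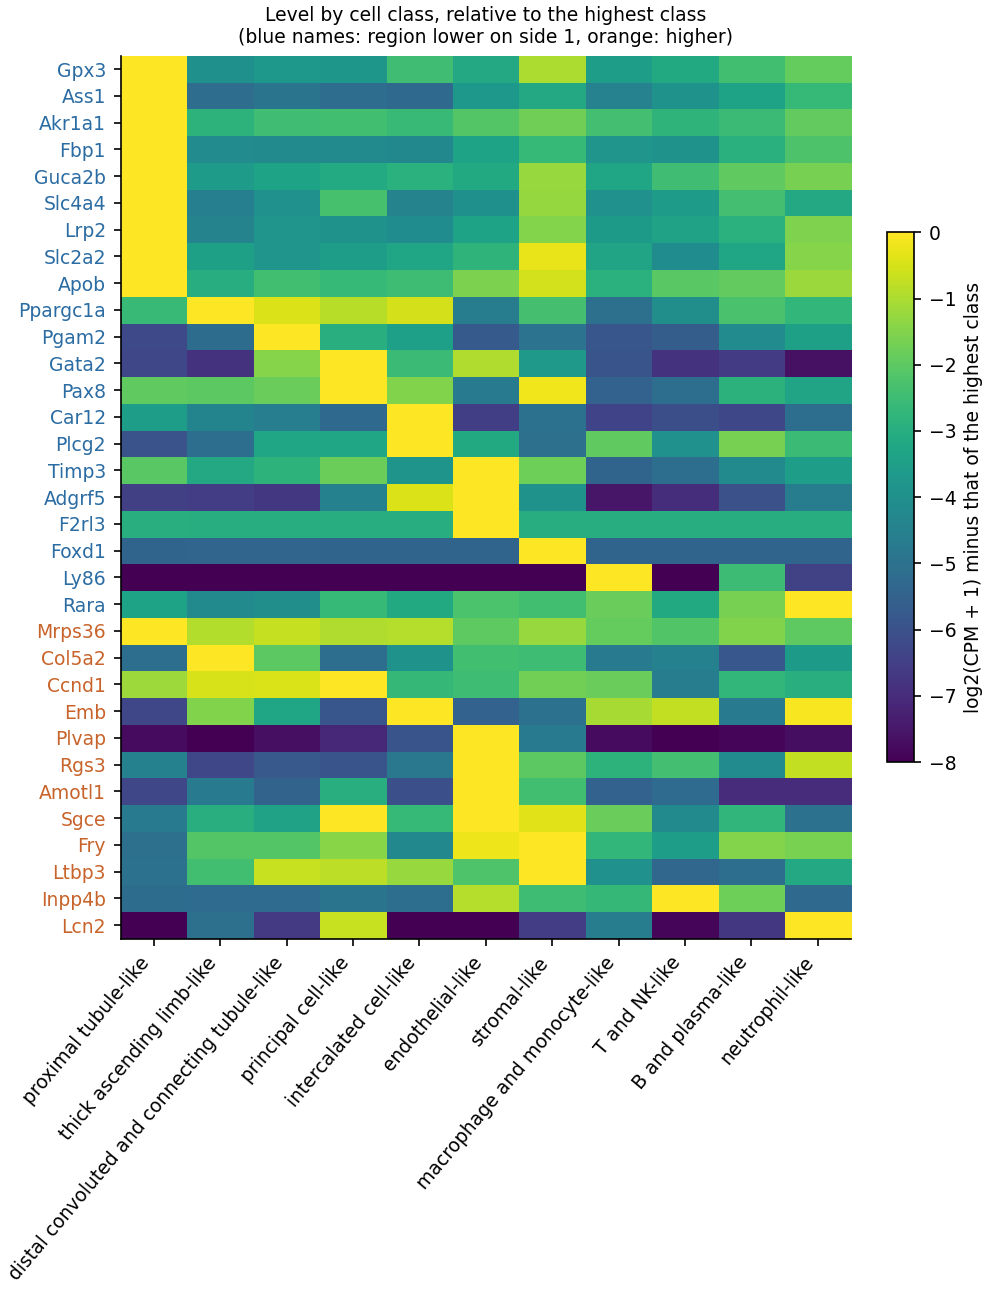
log2(CPM + 1) of selected genes assigned to the regions in 11 cell classes (columns), each row relative to the class with its highest mean, with blue names for regions lower and orange names for regions higher on side 1. The upper 9 rows, from Gpx3 to Apob, are highest in proximal tubule-like cells, while of the orange rows only Mrps36 is; the genes were chosen for display after their levels were seen.

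Between genotypes, few of the assigned genes passed the test within a cell class. UMI counts summed per library were compared with edgeR's quasi-likelihood test, adjusted by Benjamini-Hochberg over all genes tested, and genes with an adjusted p under 0.05 were called. In proximal tubule-like cells 1 of the 347 assigned genes that passed the filter on low counts was called (0.288%), against 0.455% of 10998 genes, and it was lower in Gulo-/- (0.227% of all genes were called lower and 0.227% higher). In endothelial-like cells it was 1 of 231 (0.433%), against 0.494% of 7088 genes, again lower in Gulo-/- (0.423% of all genes were called lower and 0.0705% higher). At an unadjusted p under 0.05, 69 of the 347 passed (19.9%), against 15.5% of all genes, and 26 of the 231 (11.3%), against 11.2%. The shares called at an adjusted p under 0.05, each resting on 1 gene, were thus near the background. The median log2 change (Gulo-/- against wild type) of the assigned genes was 0.14 in proximal tubule-like cells, against 0.03 over all genes, and 0.08 in endothelial-like cells, against 0.01. Assigned genes that missed the filter have no test.

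Apob fell in Gulo-/- proximal tubule-like cells. Apob encodes apolipoprotein B of lipoprotein particles, and its level was 24.8 and 19.04 CPM in wild type against 3.63 and 4.82 in Gulo-/- cells, from 179, 709, 14 and 56 UMIs. The groups do not overlap, and the log2 change was -2.49 (SE 0.32, adjusted p = 0.0430 by edgeR's quasi-likelihood test). Its region lies 14771 bases from the gene, at chr12:7962703-7962906, with 37.5% on side 1 and 77.8% on side 2 in the authors' deposited table. Apob was among the leading genes of a proximal tubule-like cluster of 577 cells, 573 of them from wild type replicate 2, and 5 clusters from that library (0, 6, 8, 11 and 15) held 99.2% of its proximal tubule-like cells, so the libraries of this class rest on different clusters. The 15 proximal tubule markers summed to 33060 and 38800 CPM in wild type and to 21450 and 19060 in Gulo-/- cells of this class. Their part in the change of Apob, and that of the clusters, was not tested. The call ended without either Gulo-/- library (adjusted p = 0.158 without replicate 2 and 0.193 without replicate 1), with sex as a block (adjusted p = 0.125) and with a stricter mitochondrial limit of 25% (adjusted p = 0.0747, all by edgeR), at log2 changes of -2.67, -2.39, -2.52 and -1.80.

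Fbp1 fell in Gulo-/- endothelial-like cells. Its level there was 209 and 169.7 CPM in wild type and 45.0 and 51.5 in Gulo-/-, from 82, 92, 36 and 228 UMIs, and the log2 change was -2.09 (SE 0.25, adjusted p = 0.0147 by edgeR). Fbp1 is a proximal tubule gene, and in proximal tubule-like cells it had 1883, 1128, 903 and 959 CPM, with no call (log2 change -0.85, adjusted p = 0.310 by edgeR). The 15 proximal tubule markers together took 2494 and 5425 CPM of the wild type endothelial-like cells and 1050 and 1015 of the Gulo-/- ones. All 10 of them that could be tested there had a negative log2 change, 3 with a call, and 0 of the 15 were at 0 in every library. Fbp1 is itself among the 15 summed, the 10 tested and the 3 called. The part of free or neighbouring proximal tubule RNA in the change of Fbp1 was not tested.

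Plvap, Adgrf5 and the summed endothelial markers had higher values in Gulo-/- than in wild type proximal tubule-like cells, with no call among the genes given here. Plvap had 4.84, 4.81, 20.5 and 17.0 CPM there (adjusted p = 0.0554 by edgeR) and Adgrf5 0.830, 0.993, 4.67 and 7.74 (adjusted p = 0.0641 by edgeR). Adgrf5 is not particular to endothelial-like cells: it averaged 305.7 CPM in intercalated cell-like cells, beside 409.9 in endothelial-like ones. The 12 endothelial markers summed to 14.8 and 19.4 CPM in wild type proximal tubule-like cells and 67.9 and 73.7 in Gulo-/- ones, and endothelial-like cells were 5.78%, 2.07%, 17.6% and 7.44% of the libraries. The 7 thick ascending limb markers summed to 31.1 and 161.7 CPM in wild type and 116.9 and 939.6 in Gulo-/- proximal tubule-like cells. All 6 of them that were tested there had a positive log2 change, with 0 called. Ccnd1 had 78.3, 67.0, 302 and 207 CPM in proximal tubule-like cells (log2 change 1.68, adjusted p = 0.0688 by edgeR), higher in both Gulo-/- libraries but not called.

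**Figure D5:**
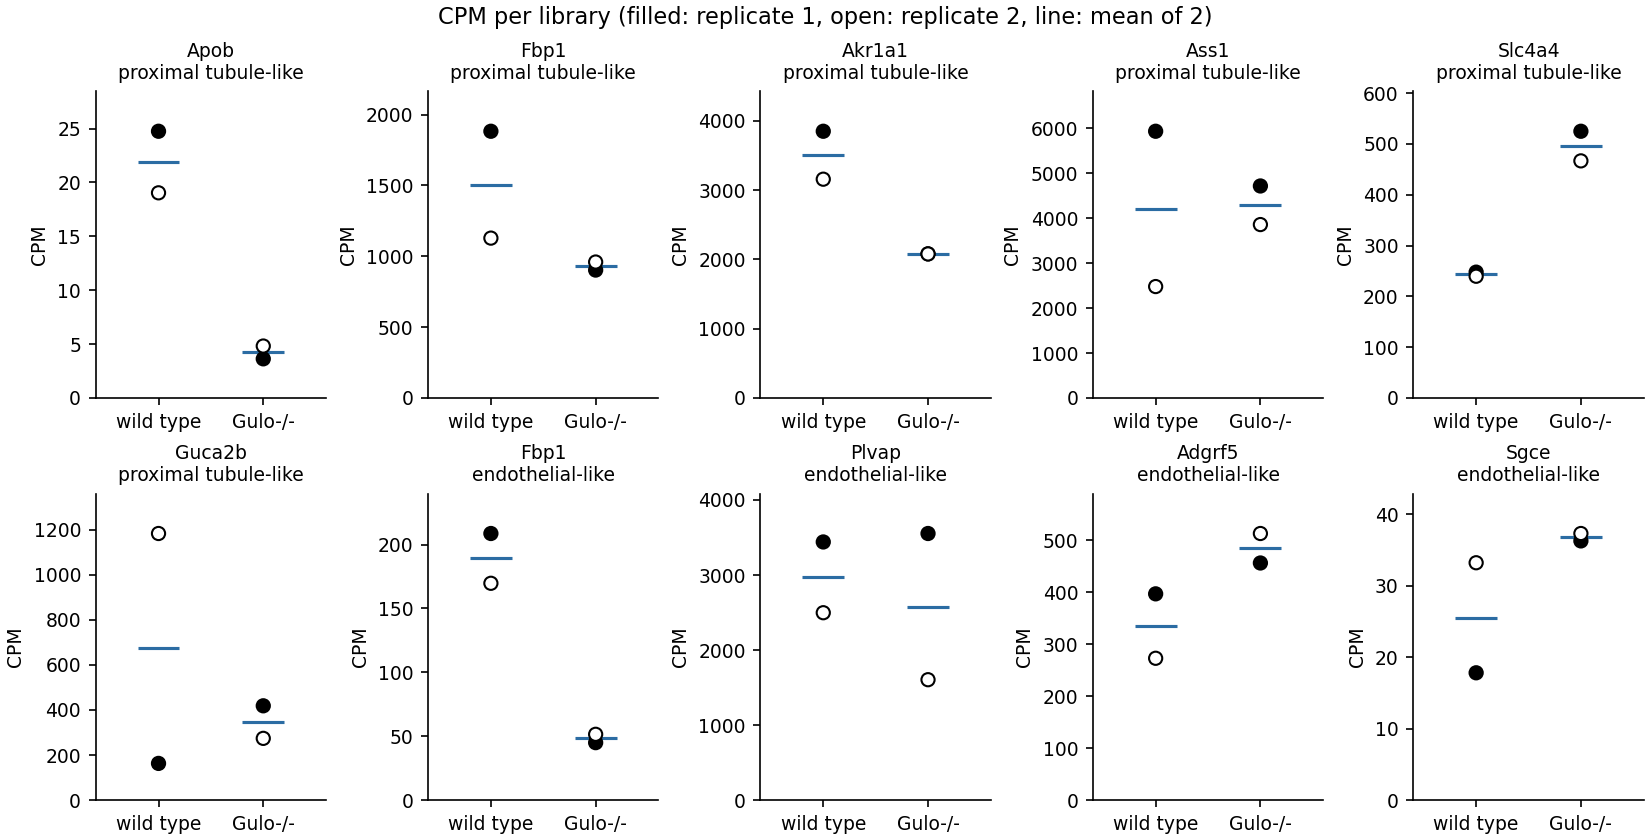
CPM of 9 genes assigned to the regions, per library, in proximal tubule-like or endothelial-like cells (filled points replicate 1, open points replicate 2, lines the mean of 2; each vertical axis starts at 0). Apob in proximal tubule-like and Fbp1 in endothelial-like cells, the 2 called changes, are lower in both Gulo-/- libraries, while Ass1, Guca2b and Plvap overlap between the genotypes.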

How the data were processed

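Kidney samples of 2 genotypes, 2 replicates each, were profiled by bisulfite sequencing of the genome, by single-cell RNA sequencing, and by m6A RNA immunoprecipitation with its RNA sequencing. The submitters' processing notes name mm10, Seurat 2.3.4 and MACS2 2.1.2; which tool made the methylation table is not stated. Methylation levels are fractions in the authors' deposited table, printed as percent, and the difference is a score in the deposited table, checked to equal side 1 minus side 2. The area score deposited beside it was not used. In the authors' deposited marker table fold changes are on a natural log scale, shares of cells are fractions and p-values were computed over cells by the authors; only cluster membership was used. Single-cell matrices were deposited as raw UMI counts.

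Cells were kept from 500 UMIs and 200 genes upward, if mitochondrial UMIs did not exceed 50%. Doublets were scored per library and removed at a rate of 0.8% per 1000 cells, 20, 559, 28 and 1559 cells. The automatic call, which was not used, marked 2, 0, 5 and 1231. Barcodes shared between the wild type libraries were removed from replicate 2. Clusters were made with scanpy 1.11.5 and leidenalg 0.10.2 from 2000 variable genes, 30 components and 15 neighbours at resolution 1, and named from 18 marker lists, so names and shares are rebuilt. UMI counts per library were summed in classes with at least 50 cells in each library and tested with edgeR 4.0.16 (quasi-likelihood, TMM, filterByExpr, genotype only), adjusted by Benjamini-Hochberg over all genes tested; the procedure was tested on simulated data. Class levels are means over libraries with at least 20 cells of the class. Expressed genes had at least 20 UMIs in all.

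Members and lists were chosen with earlier results of these data known. Named are the 12 largest differences per direction, up to 12 promoter members, neighbouring members, genes called, genes with the highest level and the leading genes of classes; other genes were chosen after their values were seen. Alternatives varied the region limits, scaling, test, filters, blocks and libraries. Per-sample bisulfite values and the immunoprecipitation data were not used here. A result of 1 gene is not reported here.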

Additional observations from a re-analysis of the deposited data

Results flagged for a closer look

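Gpx3, the secreted glutathione peroxidase whose assigned 3′ UTR region was lower on side 1, moved in opposite directions in the 2 classes. Its log2 change was 0.19 in proximal tubule-like cells, where both Gulo-/- libraries lay above both wild type ones, and -0.92 in endothelial-like cells, where both lay below. Neither change passed the test (adjusted p = 0.813 and 0.429 by edgeR's quasi-likelihood test), and the difference between the classes was not tested. The proximal tubule markers in endothelial-like cells, summed, were also lower in both Gulo-/- libraries, and their part in this was not tested.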

How the results depend on the processing

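The number of regions was 2201 at a minimum difference of 0.30, 157 at 0.40 and 158 with at least 10 CpGs. The share lower on side 1 was 76.7% with at least 3 CpGs, 89.9% with at least 10 and 66.2% with chromosome 14 kept in. In proximal tubule-like cells, 50 genes in all and 1 assigned gene were called. These counts were 305 and 17 with DESeq2, 869 and 35 with no filter on low counts, 77 and 2 with shared barcodes kept, and 0 and 0 with sex as a block (1526 and 66 at an unadjusted p under 0.05 by edgeR). They ran from 1 to 264 and from 0 to 8 when 1 library was left out, at 264 and 8 without wild type replicate 1, 48 and 2 without wild type replicate 2, and 1 and 0 without either Gulo-/- library. In endothelial-like cells, 35 and 1 were called. These became 92 and 4 with DESeq2, 395 and 9 with no filter, 15 in all at a mitochondrial limit of 25%, 5 and 0 with doublets kept, and 66 and 2 with shared barcodes kept. With 1 library left out they ran from 60 to 140 and from 1 to 6, at 140 and 6 without wild type replicate 1, 60 and 2 without wild type replicate 2, 119 and 2 without Gulo-/- replicate 1 and 65 and 1 without Gulo-/- replicate 2. The lone library of an arm was then assumed to vary like the others. The cause of these changes was not tested.

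With the replicate number as a block, 312 and 14 genes were called in proximal tubule-like and 327 and 8 in endothelial-like cells. Same-numbered libraries correlated in their deviations from the group means at 0.024 and 0.168. With 2 libraries a group, crossing the pairs only changes the sign of each value, so the correlations cannot show whether the numbers pair the libraries. Median mitochondrial shares were 16.6% in both replicate 1 libraries, and 24.5% (wild type) and 20.1% (Gulo-/-) in replicate 2. Crossed pairs are the sex block. Ass1 in proximal tubule-like cells turned from -0.13 to 0.0188 under the replicate block and 0.0186 under the sex block. Log2 changes that reversed with 1 library left out, none of them called, ranged from -0.68 to 0.71 for Ass1, -1.32 to 2.25 for Pgam2, -0.45 to 0.0902 for Ppia and -0.25 to 0.59 for Rplp1 in proximal tubule-like cells, and from -0.55 to 0.56 for Lyl1, -0.17 to 0.16 for Mpc2, -0.32 to 0.0179 for Ppia and -0.57 to 0.27 for Rplp1 in endothelial-like cells. Of 179 values for 15 named genes, 155 kept direction and side of the threshold, 4 lost the call, all of Apob, 5 gained one and 15 reversed. Depth of the bisulfite data is unknown, and 2 libraries a group limit every test.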
